A study of Mus musculus with 6 samples.

Results

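Solute carriers are a large group of membrane transport proteins, and their genes carry the symbol Slc, a family number and a member letter. They move amino acids, sugars, nucleosides, vitamins, metals, ions and metabolites across the plasma membrane and across the membranes of mitochondria, lysosomes, endosomes and the Golgi. Most do so by letting a substrate follow an ion gradient or by exchanging it for another, and some need a partner subunit to reach the membrane. Macrophages and osteoclasts depend on several of them, for instance for acid and chloride handling in resorption and for clearing what lysosomes break down.

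The genes described here are the rows of the deposited count table whose symbol starts with Slc and a number and whose raw counts, summed over the 6 libraries, reached 300. Of 22271 rows, 329 had such a symbol and 179 reached the minimum, in 44 families. They were chosen by these summed counts, which are no result. The members just inside were Slc7a4, Slc6a9 and Slc26a11, with sums of 331, 342 and 364 counts, and the rows just outside were Slc27a3, Slc26a8 and Slc25a29, with 289, 271 and 265. All 179 passed the count filter of the test. For 6 of them the counts of one group summed to under 150 (Slc6a9, Slc7a4, Slc22a23, Slc25a21, Slc37a2 and Slc37a3), so the other group helped to bring them in. The symbol does not always stand for a transporter: 4 members are a scaffold (Slc9a3r1), an adaptor (Slc4a1ap), a neighbouring gene (Slc7a6os) and a pseudogene (Slc2a4rg-ps).

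RNA came from a pair of progenitor populations sorted from C57BL/6JRj mouse bone marrow: MOP, labelled CD27 low, and MODP, labelled CD27 high. The series' title places the bipotent macrophage and osteoclast progenitor below a progenitor that also gives dendritic cells. Each population had 3 libraries, with 13338577 to 15892640 counts in MOP and 10701425 to 13846749 in MODP. The titles mark all libraries as WT, no treatment is labelled, and the sources used here do not give the age or number of mice. No source says whether replicates are separate animals, so p-values cover only how these libraries vary, and part of that may be technical. Levels are CPM, counts per 1000000 of a library's TMM-scaled total, and each fold change is MOP over MODP.

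The sort labels matched the counts of their marker. Cd27, the receptor used for the sort, stood at 4.56, 3.52 and 3.64 CPM in MOP, against 35.3, 38.9 and 38.6 CPM in MODP. Csf1r, the M-CSF receptor, was higher in every MOP library than in any MODP library, and Flt3 and Kit were lower; of all 8 identity genes 3 were higher and 4 lower by edgeR. Libraries with the same number in their column names, one of each group, deviated together from their group means, and replicate 2 of both groups held the most transcripts of neutrophil markers. The whole list of 7 such markers summed to 2597, 10959.5 and 4640.4 CPM in MOP replicates 1 to 3, against 3350.3, 15713 and 2034 CPM in MODP. Marker transcripts of basophils and mast cells were higher in every MOP library: the 10 listed genes summed to 4700.0, 3489 and 5493 CPM in MOP replicates 1 to 3, against 612, 1182 and 571 CPM in MODP, and 9 of the 10 passed the test as higher. The 10 erythroid markers summed to 394, 539.6 and 306 CPM in MOP replicates 1 to 3, against 212, 498 and 118 CPM in MODP, with 4 of 10 higher. None of the markers on these 3 lists was at 0 in any library. Of 7 T and NK cell markers 5 were lower in MOP, of 6 dendritic cell markers 1 was higher and 2 lower, of 5 eosinophil markers 1 was higher and 1 lower, and of 4 tested megakaryocyte markers 1 was higher; Ppbp, a further one, was at 0 in MOP replicate 3. Of 6 B cell and 7 neutrophil markers 0 passed by edgeR (0 at an unadjusted p under 0.05, and 0 by DESeq2). In bulk RNA, fewer cells of a type and less RNA per cell cannot be told apart.

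Of the 179 members, 44 passed as higher in MOP, 26 as lower and 109 in neither direction, with a call being an adjusted p under 0.05 in edgeR's quasi-likelihood fit to all 12850 genes tested (Benjamini-Hochberg). Among all genes tested 16.3% were higher and 14.9% lower, so the 24.6% of members that were higher lay above that background and the 14.5% that were lower lay at it. The members had to reach 300 summed counts, whereas the background holds every gene that passed the count filter. These shares are thus not matched for count level, and the part of that in the difference was not tested. The median log2 fold change was 0.01 over the members (-0.04 under upper-quartile scaling) and -0.01 over all genes tested. Differences of at least 2-fold were found in 14 of the 179 members in the higher direction (3.84% of all genes tested). In the lower direction they were found in 1 of 179, Slc28a2 (3.00% of all genes). Among these higher members, Slc6a9, Slc22a23, Slc25a21, Slc37a2 and Slc37a3 had under 150 counts in MODP, so the MOP counts helped to bring them in. The part of the count minimum in this split was not tested. The groups did not overlap for 54 members in the higher direction and 36 in the lower, against 23.8% of all genes tested in each direction and 47.6% in either. The summed level of the members was 10394, 10492 and 10327 CPM in MOP, against 9926, 9798 and 9897 CPM in MODP, so every MOP library lay above every MODP library by a small margin.

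The count of lower members changed when a library was left out. Without 1 library it became 10 (MOP replicate 1), 13 (MOP replicate 2), 14 (MOP replicate 3), 10 (MODP replicate 1), 30 (MODP replicate 2) and 13 (MODP replicate 3), whereas the count of higher members stayed between 30 and 52. Both counts fell without any library other than MODP replicate 2 and rose without that one. These fits rest on fewer libraries, and their shares of all genes tested are not given here. The changes can therefore not be called particular to the members or to a library. Of the 70 calls, 34 held in all 6 fits without a library. With the column number as a block the counts were 57 higher and 34 lower (21.2% and 19.8% of all genes tested): 22 members gained a call and 1, Slc24a3, lost it. Under upper-quartile scaling the split was 36 higher and 34 lower, and that of all genes tested 13.2% and 19.1%. DESeq2 gave 43 higher and 19 lower members (14.7% and 11.7% of all genes). DESeq2's size factors in edgeR gave 44 and 25 (16.5% and 14.7%). With no filter on low counts the members called were 42 and 21. The shares were then 9.20% and 8.33% of all 22271 rows, which include the low-count rows that the filter drops. Where 1 CPM in 3 libraries was required, the members called were 44 and 27 (16.5% and 15.9%). The title number as a block gave 54 and 28 (19.6% and 18.0%). Without replicate 2 of both groups they were 50 and 27 (18.4% and 15.6%).

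**Figure D1:**
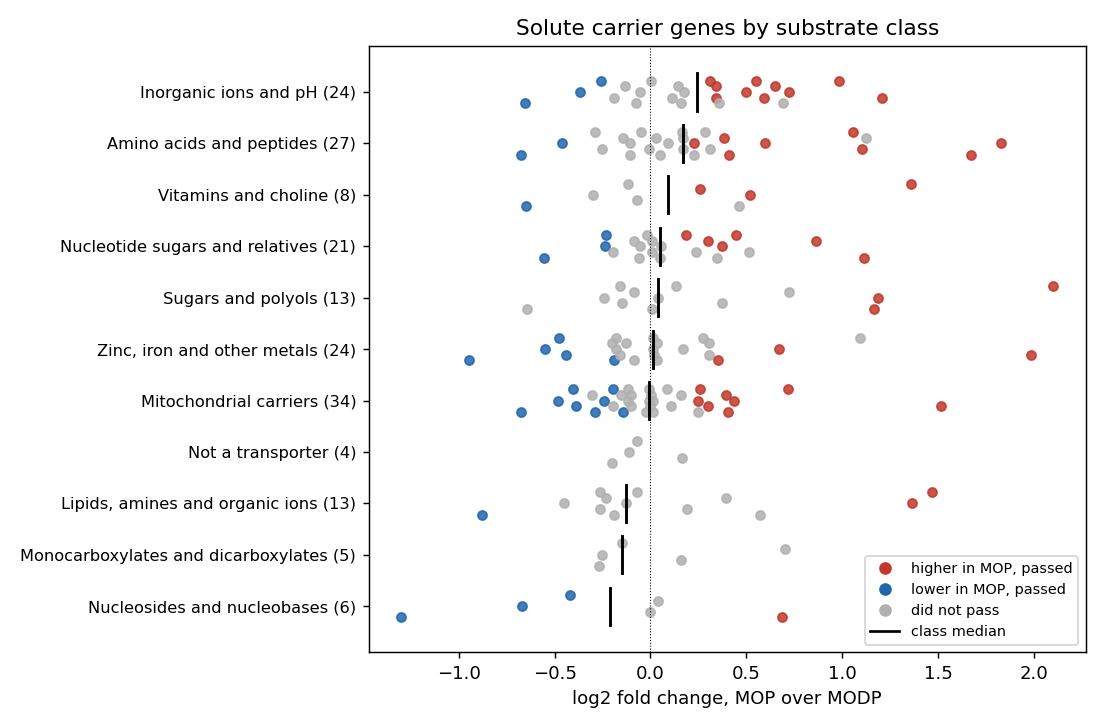
Log2 fold change (MOP over MODP) of each of the 179 members, 1 point a gene, by substrate class with the number of members in brackets; black bars are class medians. Red points passed the test as higher in MOP and blue points as lower. The points furthest right are Slc37a3 at 2.10 and Slc41a3 at 1.99, and the one furthest left is Slc28a2 at -1.30.

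**Figure D2:**
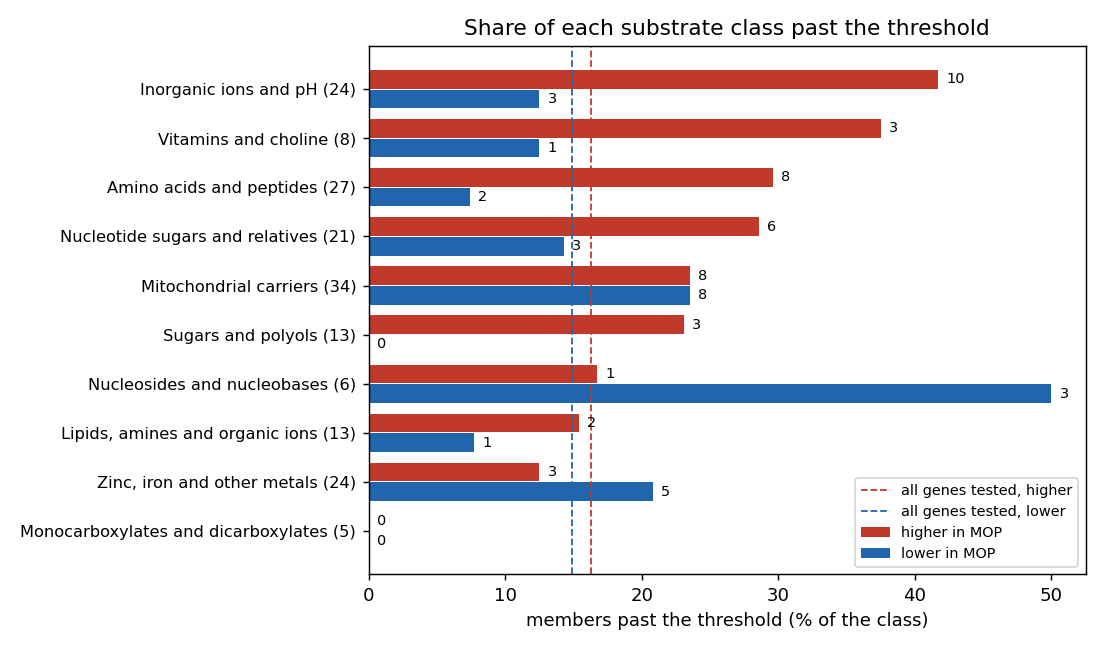
Share of each substrate class (% of its members, number in brackets) that passed the test as higher (red) or lower (blue) in MOP, with the count at each bar; dashed lines mark the shares over all genes tested, 16.3% and 14.9%. Inorganic ions and pH had the largest share of higher members, 10 of 24, and nucleosides and nucleobases the largest share of lower members, 3 of 6.

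Promoter sequences were read for the members that had one in the RefSeq table (GRCm38.p6), which held 136 of the 179, as windows from 250 bases before to 50 after a transcript start. The E-box CACGTG, which reads the same on both strands and is bound by Myc and Max and by Mitf and Tfe factors, was present in a window of 7 of 19 lower members (36.8%), 5 of 38 higher members (13.2%), 13 of 79 members that did not pass (16.5%) and 2187 of 27025 genes in all (8.09%); it was in 7.15% of all windows. Lower members averaged 1.53 windows a gene, higher members 1.42 and all genes 1.22. The 27025 genes were not limited to those tested here and were not matched to the members for count level. The part of that in the shares was not tested. The E-box was singled out after the shares of 10 motifs had been seen. The other 9, searched on both strands, were TCACGTGA (which contains the E-box), GAGGAAGT, TGATGCAA, AGATAA, TGACGTCA and GTGACGTC (which overlap each other), CCAAT, TTGCGCAA and TTTCCCGC. GAGGAAGT, the core bound by PU.1, was in windows of 2.63% of higher and 5.26% of lower members and 3.69% of all genes. Shown here are 4 promoters with an E-box, of the pair of higher members with the largest fold change and of a pair of lower members with a single window each; capitals mark CACGTG. A match is a run of letters, not a measured site.
Slc37a3 (chr6:39377658-39377957, minus strand): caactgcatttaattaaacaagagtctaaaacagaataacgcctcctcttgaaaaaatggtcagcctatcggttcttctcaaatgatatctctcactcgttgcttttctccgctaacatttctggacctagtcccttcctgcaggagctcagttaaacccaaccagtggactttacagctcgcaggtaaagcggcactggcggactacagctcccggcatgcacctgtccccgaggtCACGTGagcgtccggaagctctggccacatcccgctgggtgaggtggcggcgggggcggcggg
Slc41a3 (chr6:90618996-90619295, plus strand): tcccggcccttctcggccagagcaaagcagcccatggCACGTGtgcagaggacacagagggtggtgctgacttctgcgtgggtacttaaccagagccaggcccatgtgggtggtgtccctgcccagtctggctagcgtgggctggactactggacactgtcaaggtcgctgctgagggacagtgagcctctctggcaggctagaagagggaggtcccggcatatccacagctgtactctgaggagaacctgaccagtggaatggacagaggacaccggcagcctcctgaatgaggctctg
Slc35e3 (chr10:117746309-117746608, minus strand): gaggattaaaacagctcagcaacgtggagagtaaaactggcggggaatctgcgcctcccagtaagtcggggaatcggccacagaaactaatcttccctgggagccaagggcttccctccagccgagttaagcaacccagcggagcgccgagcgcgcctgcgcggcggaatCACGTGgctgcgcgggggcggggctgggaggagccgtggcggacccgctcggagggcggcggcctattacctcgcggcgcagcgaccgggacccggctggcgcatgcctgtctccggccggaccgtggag
Slc25a1 (chr16:17928170-17928469, minus strand): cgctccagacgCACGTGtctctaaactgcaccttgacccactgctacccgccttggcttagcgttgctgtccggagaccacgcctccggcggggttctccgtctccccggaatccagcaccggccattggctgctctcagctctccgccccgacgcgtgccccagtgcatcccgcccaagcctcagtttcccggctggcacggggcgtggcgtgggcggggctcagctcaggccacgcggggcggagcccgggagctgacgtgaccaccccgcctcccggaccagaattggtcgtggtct
The first pair was higher and the second pair lower in MOP because they were chosen that way. The sequences shown thus say nothing about direction.

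Among the transporters of amino acids and peptides, 8 of 27 members passed as higher in MOP and 2 as lower, with a median log2 fold change of 0.17. Slc7a8 (ENSMUSG00000022180), the exchanger light chain LAT2 for neutral amino acids, showed the largest difference of the class. It stood at 92.2, 60.1 and 78.9 CPM in MOP replicates 1 to 3, against 21.4, 22 and 21.5 CPM in MODP replicates 1 to 3 (log2 fold change 1.83 ± 0.15, SE; edgeR adjusted p = 0.00039). Each MOP library lay above 60 CPM, and the MODP libraries were within 1 CPM of each other. Slc7a7, the light chain y+LAT1 that lets cationic amino acids out of cells and is active in macrophages, stood at 19, 16.9 and 16 CPM in MOP replicates 1 to 3, against 6.98, 9.58 and 8.42 CPM in MODP replicates 1 to 3 (log2 fold change 1.06 ± 0.14, SE; edgeR adjusted p = 0.0014). Slc3a2, the heavy chain CD98 that both light chains need at the membrane, averaged 159.8 ± 15.1 CPM in MOP and 161 ± 6.57 CPM in MODP (SD, n = 3) with edgeR adjusted p = 0.96, so it did not pass. Other light chains differed from these. Slc7a6 (y+LAT2) fell by 0.46 ± 0.12 (SE) on the log2 scale (edgeR adjusted p = 0.022). Slc7a5 (LAT1), the most abundant of them per length at 37.8 CPM per kb in MOP and 45 CPM per kb in MODP, had a log2 fold change of -0.25 ± 0.09 that did not pass (edgeR adjusted p = 0.058; 0.0075 with the column number as a block).

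Slc38a5, a sodium-coupled carrier of glutamine and other neutral amino acids, was 3.18-fold higher in MOP, at 21.3, 27.7 and 18.3 CPM in MOP replicates 1 to 3, against 7.47, 9.01 and 4.84 CPM in MODP replicates 1 to 3 (log2 fold change 1.67 ± 0.25, SE; edgeR adjusted p = 0.0029). Slc43a2, the facilitative carrier LAT4 for large neutral amino acids, averaged 115 ± 7.57 CPM in MOP and 75.8 ± 3.48 CPM in MODP (SD, n = 3; log2 fold change 0.60 ± 0.07, SE; edgeR adjusted p = 0.00064). The groups did not overlap for either gene. Slc15a4, which carries histidine and peptides and is needed for signalling by endosomal Toll-like receptors, averaged 56 ± 6.52 CPM in MOP and 42.1 ± 4.07 CPM in MODP (SD, n = 3; edgeR adjusted p = 0.019). Slc38a9, an arginine sensor for mTORC1, averaged 23.9 ± 2.5 CPM in MOP and 18.4 ± 1.41 CPM in MODP (edgeR adjusted p = 0.028). Slc6a6, the taurine transporter, had a log2 fold change of 0.23 ± 0.07. Slc6a9, a glycine transporter, had one of 1.10 ± 0.28, but 42.6% of its 31-mers occur in other genes and 30.2% of its exon length overlaps Ccdc24 on the other strand. The most abundant members per length, Slc1a5 (a glutamine transporter, 52 CPM per kb in MOP and 51 CPM per kb in MODP) and Slc3a2, had log2 fold changes of 0.03 and -0.01. The lower member beside Slc7a6 was Slc7a4, an orphan of the cationic amino acid family, at 3.25 ± 0.332 CPM in MOP and 5.19 ± 0.442 CPM in MODP (SD, n = 3). Without MOP replicate 1 the higher members were 4, and without MOP replicate 2, MODP replicate 1 or MODP replicate 3 they were 5; the lower members were 0 without MOP replicate 1, MOP replicate 2 or MODP replicate 1 and 1 without MOP replicate 3 or MODP replicate 3. Slc7a8, Slc7a7, Slc38a5 and Slc43a2 kept their calls in all of these. With the column number as a block 4 members were lower. Slc6a9 lost its call without MOP replicate 1, MOP replicate 2 or MODP replicate 1 (edgeR adjusted p up to 0.072). Slc15a4 lost its call without MOP replicate 1, MOP replicate 3 or MODP replicate 3 (edgeR adjusted p up to 0.076). Slc38a9 lost its call without MOP replicate 1, MOP replicate 2, MODP replicate 1 or MODP replicate 3 (edgeR adjusted p up to 0.1). Slc6a6 lost its call without MOP replicate 1, MOP replicate 2, MODP replicate 1 or MODP replicate 3 (edgeR adjusted p up to 0.13). Slc7a6 lost its call without MOP replicate 1, MOP replicate 2 or MODP replicate 1 (edgeR adjusted p up to 0.091). Slc7a4 lost its call without MOP replicate 1, MOP replicate 2, MOP replicate 3, MODP replicate 1 or MODP replicate 3 (edgeR adjusted p up to 0.1).

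**Figure D3:**
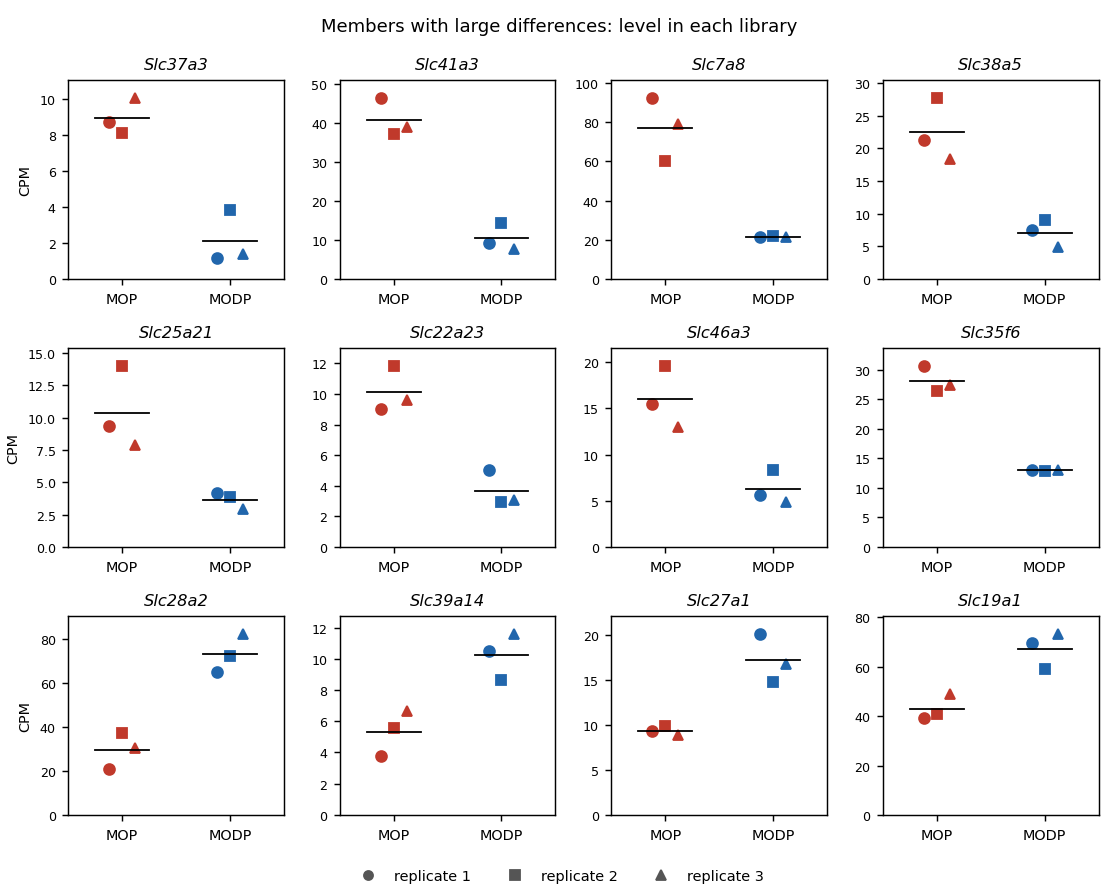
CPM in each library for 8 higher and 4 lower members, MOP left (red) and MODP right (blue), with a bar at the group mean; the marker shape gives the replicate and each axis starts at 0. In none of the 12 panels do the groups overlap. Slc7a8 and Slc35f6 had nearly equal levels in the 3 MODP libraries.

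Among the carriers of sugars and polyols, 3 of 13 passed as higher in MOP and 0 as lower by edgeR (1 lower at an unadjusted p under 0.05, and 0 by DESeq2). Of the higher ones, Slc37a3 and Slc37a2 had under 150 counts in MODP, so the MOP counts helped to bring them in. With members at 1000 or more counts, 1 was higher. The median log2 fold change was 0.04, or -0.0150 under upper-quartile scaling. Slc37a3 (ENSMUSG00000029924), whose human protein is needed for nitrogen-containing bisphosphonates to leave lysosomes, had the largest fold change of all members. Its level was 8.75, 8.12 and 10.1 CPM in MOP replicates 1 to 3, against 1.15, 3.85 and 1.4 CPM in MODP replicates 1 to 3 (log2 fold change 2.10 ± 0.41, SE; edgeR adjusted p = 0.0085). MODP replicate 2 was the highest of its group, yet below every MOP library. Slc37a2, a relative described in osteoclasts of mice, averaged 6.17 ± 1.97 CPM in MOP and 2.74 ± 1.0 CPM in MODP (SD, n = 3; edgeR adjusted p = 0.026), and lost its call without MOP replicate 2, MODP replicate 1 or MODP replicate 3 (edgeR adjusted p up to 0.094). Slc2a6, a hexose transporter family member found on lysosomes, was at 45.7, 40.7 and 35.4 CPM in MOP replicates 1 to 3, against 21, 18.8 and 14.5 CPM in MODP replicates 1 to 3 (log2 fold change 1.17 ± 0.15, SE; edgeR adjusted p = 0.0013). The glucose transporters of the plasma membrane did not pass the test: Slc2a1 (GLUT1) averaged 28.5 ± 1.35 CPM in MOP and 26 ± 3.74 CPM in MODP (edgeR adjusted p = 0.41), and Slc2a3 (GLUT3) averaged 132 ± 24.5 CPM in MOP and 80.8 ± 61.9 CPM in MODP (SD, n = 3 each; edgeR adjusted p = 0.44). Slc37a4, the glucose 6-phosphate transporter of the endoplasmic reticulum, had a log2 fold change of -0.15 ± 0.08, and Slc50a1, the most abundant of the class per length at 22.3 CPM per kb in MOP and 22.1 CPM per kb in MODP, one of 0.01 ± 0.07. Without MODP replicate 2, and with the column number as a block, 1 member was lower.

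None of the 5 monocarboxylate carriers passed the test in either direction by edgeR (0 of 5 at an unadjusted p under 0.05, and 1 higher and 0 lower by DESeq2). Slc16a1 (MCT1), which moves lactate and is the most abundant of them at 23.2 CPM per kb in MOP and 27.9 CPM per kb in MODP, stood at 89.3, 122 and 96.8 CPM in MOP, against 116, 119 and 136 CPM in MODP. Slc16a3 (MCT4), the lactate exporter of glycolytic cells, stood at 34.3, 51.2 and 37.3 CPM in MOP, against 20.6, 35.9 and 19.4 CPM in MODP. It was higher in MOP within each of the 3 pairs of libraries with the same column number, and replicate 2 was the highest of either group. The edgeR adjusted p of Slc16a3 was 0.13, and 0.00058 with the column number as a block. Without MODP replicate 2 it was the 1 higher member, and without MOP replicate 2 Slc16a1 was the 1 lower member.

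Inorganic ion carriers had the largest number of higher members: 10 of 24 rose, 3 fell and 11 did not pass, with a median log2 fold change of 0.24. Their summed level was 1351, 1333 and 1229.8 CPM in MOP, against 1089.6, 1117 and 971 CPM in MODP, so every MOP library lay above every MODP library. Slc8a1, the sodium-calcium exchanger NCX1, was at 13.8, 14.8 and 13.5 CPM in MOP, against 6.9, 6.67 and 7.65 CPM in MODP, a 1.98-fold rise (log2 fold change 0.98 ± 0.12, SE; edgeR adjusted p = 0.00096). Slc8b1, the sodium-calcium exchanger of mitochondria and the most abundant of the class per length at 38.2 CPM per kb in MOP and 30.2 CPM per kb in MODP, averaged 132 ± 2.92 CPM in MOP and 104 ± 4.15 CPM in MODP (SD, n = 3; edgeR adjusted p = 0.0023). Of 6 exchangers of sodium for protons 3 passed as higher and 3 did not pass. Among the higher ones, the endosomal Slc9a9 rose by log2 0.65 ± 0.12 (SE; edgeR adjusted p = 0.0051). Those that did not pass, Slc9a8, Slc9a7 and Slc9a5, had log2 fold changes of -0.07, 0.11 and 0.36.

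Slc4a2, the chloride-bicarbonate exchanger AE2 that mouse osteoclasts need to resorb bone, stood at 74.3, 68.1 and 70.2 CPM in MOP replicates 1 to 3, against 52.1, 50.6 and 42.6 CPM in MODP replicates 1 to 3 (log2 fold change 0.55 ± 0.09, SE; edgeR adjusted p = 0.0025). The MOP libraries differed from each other by less than their distance to MODP. Slc4a7, a sodium-bicarbonate cotransporter, averaged 63.1 ± 4.67 CPM in MOP and 62.8 ± 2.26 CPM in MODP (SD, n = 3; edgeR adjusted p = 0.97). Slc4a8 of the same family fell, at 10.8 ± 1.4 CPM in MOP and 17 ± 3.59 CPM in MODP (SD, n = 3; edgeR adjusted p = 0.022). Potassium-chloride cotransporters split: Slc12a4 (KCC1) rose by log2 0.72 ± 0.15 (SE), whereas Slc12a7 (KCC4) fell by 0.37 ± 0.11. Their relative Slc12a9 averaged 53.2 ± 6.04 CPM in MOP and 35.3 ± 3.15 CPM in MODP (SD, n = 3; edgeR adjusted p = 0.0036). Slc24a3, an exchanger of sodium for calcium and potassium, averaged 10.1 ± 4.18 CPM in MOP and 4.35 ± 0.948 CPM in MODP (SD, n = 3; edgeR adjusted p = 0.027, 0.058 with the column number as a block). Among the MOP libraries it was highest in replicate 1 and lowest in replicate 2. The basophil and mast cell marker sum was also higher in MOP and also lowest there in replicate 2, but highest in replicate 3, and its part in the result was not tested. Phosphate importers differed little. Slc20a1 averaged 133 ± 21.7 CPM in MOP and 120.2 ± 22.9 CPM in MODP and did not pass (edgeR adjusted p = 0.6; 0.042 with that block). Slc20a2, at 25.9 ± 1.45 CPM in MOP and 30.9 ± 0.934 CPM in MODP (SD, n = 3 each), passed as lower (edgeR adjusted p = 0.037). The lower members of the class were 1 without MOP replicate 1 or MODP replicate 1 and 0 without MOP replicate 2, MOP replicate 3 or MODP replicate 3. Slc24a3 lost its call without MOP replicate 1, MOP replicate 3, MODP replicate 1 or MODP replicate 3 (edgeR adjusted p up to 0.097). Slc4a8 lost its call without MOP replicate 2, MOP replicate 3, MODP replicate 1 or MODP replicate 3 (edgeR adjusted p up to 0.078). Slc12a7 lost its call without MOP replicate 1, MOP replicate 2, MOP replicate 3 or MODP replicate 3 (edgeR adjusted p up to 0.12). Slc20a2 lost its call without MOP replicate 1, MOP replicate 2, MOP replicate 3, MODP replicate 1 or MODP replicate 3 (edgeR adjusted p up to 0.12).

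Metal carriers moved in both directions, with 3 of 24 members higher in MOP, 5 lower and 16 that did not pass. Slc41a3 (ENSMUSG00000030089), a magnesium carrier, had the second largest fold change of all members. It stood at 46.4, 37.1 and 39.1 CPM in MOP replicates 1 to 3, against 9.28, 14.3 and 7.65 CPM in MODP replicates 1 to 3 (log2 fold change 1.99 ± 0.22, SE; edgeR adjusted p = 0.0014). Each MOP library lay above 37 CPM and each MODP library below 15 CPM. Its relative Slc41a1, which exports magnesium, averaged 16 ± 2.39 CPM in MOP and 18.1 ± 3.41 CPM in MODP (SD, n = 3; edgeR adjusted p = 0.45). Slc31a2, a copper transporter of endosomes and lysosomes, stood at 38.5, 39.1 and 39.2 CPM in MOP replicates 1 to 3, against 22, 28.6 and 22.9 CPM in MODP replicates 1 to 3 (log2 fold change 0.67 ± 0.11, SE; edgeR adjusted p = 0.0026). The copper importer Slc31a1 had a log2 fold change of 0.17 ± 0.06 (edgeR adjusted p = 0.058; 0.034 with the column number as a block).

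Among the members, zinc carriers that passed were mostly lower. Of 10 members of the Slc39 family, which bring zinc into the cytosol, 3 were lower and 1 was higher. Slc39a14, which also carries iron and manganese, stood at 3.75, 5.56 and 6.67 CPM in MOP replicates 1 to 3, against 10.5, 8.64 and 11.6 CPM in MODP replicates 1 to 3 (log2 fold change -0.95 ± 0.23, SE; edgeR adjusted p = 0.015), with no overlap between the groups. Slc39a6 averaged 56 ± 4.62 CPM in MOP and 77.8 ± 7.6 CPM in MODP (SD, n = 3; edgeR adjusted p = 0.0059), and Slc39a11 averaged 69.4 ± 6.88 CPM in MOP and 94.2 ± 1.71 CPM in MODP (edgeR adjusted p = 0.0041). The higher one was Slc39a3, at log2 0.35 ± 0.10 (SE; edgeR adjusted p = 0.032). Of 6 members of the Slc30 family, which take zinc out of the cytosol, Slc30a4 and Slc30a5 were lower (log2 -0.55 and -0.19) and 4 did not pass. Below the minimum of 300 summed counts, Slc30a10 and Slc30a2 of this family passed as higher. Their log2 fold changes were 1.62 and 1.22 (edgeR adjusted p = 0.0071 and 0.040). Among iron carriers, Slc40a1, the iron exporter ferroportin, stood at 35.3, 86.2 and 62.4 CPM in MOP, against 44.1, 66.5 and 38.8 CPM in MODP. Slc11a2, the importer DMT1, averaged 35 ± 4.36 CPM in MOP and 29 ± 0.117 CPM in MODP (SD, n = 3). Slc48a1, which carries heme out of lysosomes and was the most abundant metal carrier at 47.7 CPM per kb in MOP and 53.3 CPM per kb in MODP, had a log2 fold change of -0.16. None of these 3 passed by edgeR (adjusted p = 0.62, 0.064 and 0.082), and with the column number as a block Slc11a2 and Slc48a1 did (edgeR adjusted p = 0.037 and 0.04). The higher members of the class were 6 with that block and 5 without MODP replicate 2. With that block 7 members were lower. The lower members were 2 without MODP replicate 1 and 3 without MOP replicate 1, 2 or 3 or MODP replicate 3. Slc39a14 lost its call without MODP replicate 1 (edgeR adjusted p up to 0.051). Slc39a3 lost its call without MOP replicate 1, MOP replicate 3, MODP replicate 1 or MODP replicate 3 (edgeR adjusted p up to 0.11). Slc30a4 lost its call without MOP replicate 1, MOP replicate 2, MOP replicate 3, MODP replicate 1 or MODP replicate 3 (edgeR adjusted p up to 0.15). Slc30a5 lost its call without MOP replicate 1, MOP replicate 2, MOP replicate 3, MODP replicate 1 or MODP replicate 3 (edgeR adjusted p up to 0.13).

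Mitochondrial carriers, taken here as all members of the Slc25 family, formed the largest class. In it as many rose as fell: 8 of 34 passed as higher in MOP and 8 as lower. The median log2 fold change was -0.01. Slc25a17, among the lower ones, acts in peroxisomes. The summed level of the class was 2407, 2453 and 2413 CPM in MOP, against 2500.1, 2483 and 2570.2 CPM in MODP. Ucp2, a mitochondrial carrier without an Slc symbol, is not in this sum. It stood at 1240, 1077 and 1096 CPM in MOP, against 722, 664 and 603 CPM in MODP. The sum and its direction thus hold for the members only. Among the members, the class held the highest levels per length. Slc25a5 (ANT2), which exchanges ADP for ATP, stood at 222 CPM per kb in MOP and 238 CPM per kb in MODP, although 67.1% of its 31-mers occur in other genes, and Slc25a3, the phosphate carrier, at 89.5 CPM per kb in MOP and 98.9 CPM per kb in MODP. Slc25a5 did not pass (edgeR adjusted p = 0.22), and Slc25a3 fell by 0.14 ± 0.05 (SE) on the log2 scale (edgeR adjusted p = 0.0497), a call lost in each of the 6 fits without a library.

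Calcium-regulated carriers of ATP-magnesium and phosphate moved apart. Slc25a23 fell, at 13.8, 13.1 and 14.8 CPM in MOP replicates 1 to 3, against 24.6, 19.2 and 22.7 CPM in MODP replicates 1 to 3 (log2 fold change -0.68 ± 0.12, SE; edgeR adjusted p = 0.0036). Slc25a25 rose, averaging 39.7 ± 2.2 CPM in MOP and 30.3 ± 3.32 CPM in MODP (SD, n = 3; edgeR adjusted p = 0.015). Slc25a24 rose as well, averaging 85.5 ± 4.65 CPM in MOP and 52.2 ± 15.8 CPM in MODP (edgeR adjusted p = 0.046). All 3 lacked overlap between the groups. Slc25a21, the oxodicarboxylate carrier, had the largest change of the class, at 9.34, 14 and 7.88 CPM in MOP replicates 1 to 3, against 4.19, 3.85 and 2.95 CPM in MODP replicates 1 to 3 (log2 fold change 1.51 ± 0.25, SE; edgeR adjusted p = 0.0033). Carriers that feed heme and iron-sulfur synthesis also split. Slc25a37 (mitoferrin 1, iron) fell, at 97.8 ± 14.3 CPM in MOP and 129.6 ± 4.86 CPM in MODP (SD, n = 3; edgeR adjusted p = 0.017). Slc25a39 (glutathione) fell, at 108 ± 4.1 CPM in MOP and 128 ± 7.06 CPM in MODP (edgeR adjusted p = 0.016). Slc25a38 (glycine) rose, at 35.4 ± 4.74 CPM in MOP and 26.9 ± 2.82 CPM in MODP (edgeR adjusted p = 0.033). Slc25a28 (mitoferrin 2) had a log2 fold change of 0.01. The erythroid marker sum was higher in each MOP library than in the MODP library of the same column number, which is the direction of Slc25a38 and not that of Slc25a37 or Slc25a39; its part in these values was not tested. Slc25a24 lost its call without MOP replicate 1, MOP replicate 2, MOP replicate 3, MODP replicate 1 or MODP replicate 3 (edgeR adjusted p up to 0.14). Slc25a25 lost its call without MOP replicate 2 (edgeR adjusted p up to 0.058). Slc25a37 lost its call without MOP replicate 1, MOP replicate 3 or MODP replicate 1 (edgeR adjusted p up to 0.06). Slc25a38 lost its call without MOP replicate 1, MOP replicate 2, MODP replicate 1 or MODP replicate 3 (edgeR adjusted p up to 0.11). Slc25a39 lost its call without MOP replicate 1, MOP replicate 2, MODP replicate 1 or MODP replicate 3 (edgeR adjusted p up to 0.072).

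Lower members of the Slc25 family further included the citrate carrier Slc25a1, at 41.1 ± 3.21 CPM in MOP and 50.2 ± 4.58 CPM in MODP, and the ornithine carrier Slc25a15, at 16.4 ± 0.926 CPM in MOP and 22.9 ± 1.5 CPM in MODP. The glutamate carrier Slc25a22 averaged 33.7 ± 2.61 CPM in MOP and 44.1 ± 3.54 CPM in MODP. Slc25a17, which acts in peroxisomes, averaged 57.1 ± 2.82 CPM in MOP and 65.5 ± 1.38 CPM in MODP (SD, n = 3 each). The other higher ones were the oxoglutarate-malate carrier Slc25a11 at log2 0.25 ± 0.07, the carrier of branched-chain amino acids Slc25a44 at 0.26 ± 0.08, and Slc25a45 and Slc25a30 at 0.30 ± 0.06 and 0.44 ± 0.08 (SE). Without MOP replicate 1, 2 or 3 or MODP replicate 1 or 3 the higher members were 5, 3, 5, 4 and 4, and the lower members were 3, 4, 4, 3 and 4. Slc25a15, Slc25a21, Slc25a23, Slc25a30 and Slc25a45 kept their calls in all 6 of these fits. Under upper-quartile scaling 4 members were higher. Slc25a1 lost its call without MOP replicate 2, MOP replicate 3, MODP replicate 1 or MODP replicate 3 (edgeR adjusted p up to 0.14). Slc25a22 lost its call without MOP replicate 1 (edgeR adjusted p up to 0.053). Slc25a17 lost its call without MOP replicate 1, MOP replicate 2, MOP replicate 3, MODP replicate 1 or MODP replicate 3 (edgeR adjusted p up to 0.14). Slc25a11 lost its call without MOP replicate 2, MOP replicate 3, MODP replicate 1 or MODP replicate 3 (edgeR adjusted p up to 0.1). Slc25a44 lost its call without MOP replicate 1, MOP replicate 2, MOP replicate 3, MODP replicate 1, MODP replicate 2 or MODP replicate 3 (edgeR adjusted p up to 0.12).

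**Figure D4:**
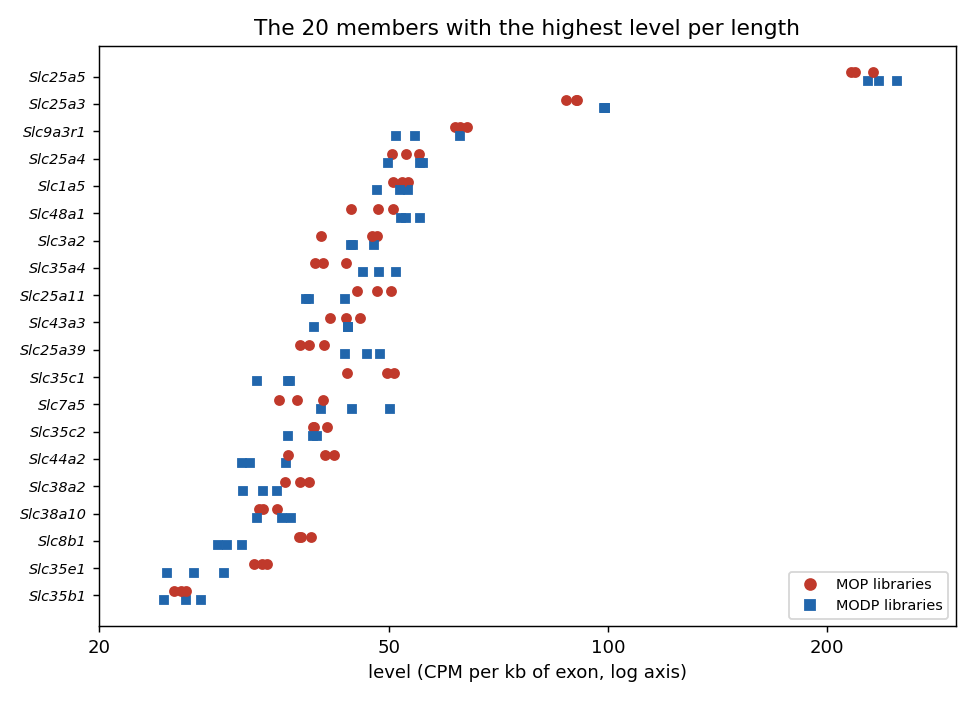
Level of the 20 members with the highest mean CPM per kb of exon, in each MOP library (red circles) and each MODP library (blue squares), on a log axis. Slc25a5 stands at 222 CPM per kb in MOP and 238 CPM per kb in MODP, above Slc25a3 at 89.5 CPM per kb in MOP and 98.9 CPM per kb in MODP. From Slc9a3r1 down, each gene's libraries overlap those of the next in the order.

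Per length, the order below Slc25a5 and Slc25a3 was not sharp. The scaffold gene Slc9a3r1 stood at 62.7 CPM per kb in MOP and 56 CPM per kb in MODP. Slc25a4 (ANT1), also an exchanger of ADP for ATP, stood at 52.8 CPM per kb in MOP and 53.6 CPM per kb in MODP, close to Slc1a5. The libraries of these 3 genes overlapped. Of the 10 highest members, Slc25a3 and Slc35a4 were lower in MOP, Slc25a11 was higher and 7 did not pass. These levels rest on exon lengths of the GENCODE M21 annotation, which may not be the one used for counting.

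Carriers of nucleotide sugars and their relatives, which supply the Golgi and endoplasmic reticulum, counted 6 of 21 members higher in MOP and 3 lower, with a median log2 fold change of 0.05, or -0.0041 under upper-quartile scaling. Slc35f6, a protein of the lysosomal membrane, had the smallest adjusted p of all members, with 30.6, 26.4 and 27.4 CPM in MOP replicates 1 to 3, against 13.1, 12.9 and 13.1 CPM in MODP replicates 1 to 3 (log2 fold change 1.11 ± 0.09, SE; edgeR adjusted p = 0.00028). Slc35c1, which carries GDP-fucose for the making of selectin ligands, stood at 166, 144 and 163 CPM in MOP replicates 1 to 3, against 119, 108 and 119.9 CPM in MODP replicates 1 to 3 (log2 fold change 0.45 ± 0.07, SE; edgeR adjusted p = 0.0028). For both genes the groups lay apart by more than either group's spread. The orphan carriers Slc35e4 and Slc35e1 rose by log2 0.86 ± 0.16 and 0.30 ± 0.07 (SE), and Slc35d1 (UDP-glucuronic acid) and Slc35a3 (UDP-N-acetylglucosamine) by 0.38 ± 0.11 and 0.19 ± 0.06. Of the lower members, the orphan Slc35e3 averaged 21.9 ± 2.78 CPM in MOP and 32.1 ± 4.59 CPM in MODP. Slc35b2, which carries the sulfate donor PAPS, averaged 73.9 ± 2.32 CPM in MOP and 86.8 ± 3.39 CPM in MODP (SD, n = 3 each). Slc35a4, the most abundant of the class at 41.2 CPM per kb in MOP and 48.5 CPM per kb in MODP, fell by 0.24 ± 0.06 (SE) on the log2 scale. Slc35a1 and Slc35a2, the carriers of CMP-sialic acid and UDP-galactose, had log2 fold changes of -0.20 and 0.01 and did not pass. The lower members were 0 without MOP replicate 1 and 1 without MOP replicate 2, MODP replicate 1 or MODP replicate 3. Slc35d1 lost its call without MOP replicate 1, MOP replicate 3 or MODP replicate 1 (edgeR adjusted p up to 0.092). Slc35a3 lost its call without MOP replicate 1, MOP replicate 2, MOP replicate 3, MODP replicate 1 or MODP replicate 2 (edgeR adjusted p up to 0.14). Slc35e3 lost its call without MOP replicate 1 (edgeR adjusted p up to 0.062). Slc35b2 lost its call without MOP replicate 1, MOP replicate 2, MODP replicate 1 or MODP replicate 3 (edgeR adjusted p up to 0.076). Slc35a4 lost its call without MOP replicate 1, MOP replicate 2, MODP replicate 1 or MODP replicate 3 (edgeR adjusted p up to 0.09).

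Of the 6 transporters of nucleosides, nucleobases and nucleotides, 3 passed as lower in MOP and 1 as higher. Slc28a2, a sodium-driven concentrative nucleoside transporter, had the smallest log2 fold change of all members, at 21, 37.5 and 30.7 CPM in MOP replicates 1 to 3, against 64.9, 72.5 and 82.3 CPM in MODP replicates 1 to 3 (log2 fold change -1.30 ± 0.22, SE; edgeR adjusted p = 0.0075). Every MOP library lay below 38 CPM and every MODP library above 64 CPM, but 51.2% of its 31-mers occur in other genes, so its counts are uncertain. Slc29a3, the equilibrative transporter ENT3 that lets nucleosides out of lysosomes and late endosomes, moved the other way, at 148, 115 and 126 CPM in MOP replicates 1 to 3, against 96.7, 66.2 and 78.3 CPM in MODP replicates 1 to 3 (log2 fold change 0.69 ± 0.16, SE; edgeR adjusted p = 0.018). Slc29a2 (ENT2) averaged 4.86 ± 0.175 CPM in MOP and 7.71 ± 1.39 CPM in MODP (SD, n = 3; edgeR adjusted p = 0.025). Slc17a9, a vesicular nucleotide carrier, averaged 23.8 ± 3.11 CPM in MOP and 31.9 ± 2.33 CPM in MODP (edgeR adjusted p = 0.021). Slc29a1 (ENT1) did not pass (edgeR adjusted p = 0.98), nor did Slc43a3, a purine nucleobase transporter and the most abundant of the class at 43.6 CPM per kb in MOP and 42.5 CPM per kb in MODP (edgeR adjusted p = 0.69). The call for Slc29a3 was lost without MOP replicate 1, MOP replicate 3 or MODP replicate 3 (0 higher members; edgeR adjusted p up to 0.078). The lower members were 1, namely Slc28a2, without MOP replicate 1, MOP replicate 3 or MODP replicate 1. Slc29a2 lost its call without MOP replicate 1, MOP replicate 2, MOP replicate 3, MODP replicate 1 or MODP replicate 3 (edgeR adjusted p up to 0.094). Slc17a9 lost its call without MOP replicate 1, MOP replicate 3 or MODP replicate 1 (edgeR adjusted p up to 0.078).

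Vitamin and choline carriers had 3 of 8 members higher in MOP and 1 lower. Slc46a3, a lysosomal member of the folate carrier family, stood at 15.4, 19.6 and 13 CPM in MOP replicates 1 to 3, against 5.67, 8.36 and 4.84 CPM in MODP replicates 1 to 3 (log2 fold change 1.36 ± 0.23, SE; edgeR adjusted p = 0.0039). Slc23a2, which takes up ascorbate, averaged 48.4 ± 4.96 CPM in MOP and 33.8 ± 1.12 CPM in MODP (SD, n = 3; edgeR adjusted p = 0.0034). Slc44a2, a choline transporter-like protein and the most abundant of the class at 39.8 CPM per kb in MOP and 33.2 CPM per kb in MODP, rose by log2 0.26 ± 0.08 (SE). The lower member was Slc19a1, the reduced folate carrier, at 39.2, 41 and 48.9 CPM in MOP replicates 1 to 3, against 69.6, 59.3 and 73.2 CPM in MODP replicates 1 to 3 (log2 fold change -0.65 ± 0.11, SE; edgeR adjusted p = 0.0032). All 3 of its MOP libraries lay below the lowest MODP library. Slc19a2 and Slc52a2, which carry thiamine and riboflavin, had log2 fold changes of -0.07 and -0.12 and did not pass. The call for Slc44a2 was lost without MOP replicate 1, MOP replicate 3, MODP replicate 2 or MODP replicate 3 (edgeR adjusted p up to 0.14). Without MODP replicate 2 the lower members were 2.

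Of the 13 carriers of lipids, amines and organic ions, 2 passed as higher in MOP and 1 as lower. Slc18a2, the vesicular monoamine transporter VMAT2 that loads histamine and serotonin into granules, stood at 46.5, 26 and 38.9 CPM in MOP replicates 1 to 3, against 16.2, 14.6 and 12.6 CPM in MODP replicates 1 to 3 (log2 fold change 1.36 ± 0.22, SE; edgeR adjusted p = 0.0055). The basophil and mast cell marker sum moved in the same direction. Among the MOP libraries both were lowest in replicate 2, while Slc18a2 was highest in replicate 1 and the sum in replicate 3; the part of the sum in the result was not tested. Slc22a23, an orphan of the organic ion family, stood at 9.04, 11.8 and 9.62 CPM in MOP replicates 1 to 3, against 5.01, 2.91 and 3.09 CPM in MODP replicates 1 to 3 (log2 fold change 1.47 ± 0.24, SE; edgeR adjusted p = 0.0028). Slc27a1, the fatty acid transport protein FATP1, fell, at 9.34, 9.91 and 8.86 CPM in MOP replicates 1 to 3, against 20.1, 14.7 and 16.8 CPM in MODP replicates 1 to 3 (log2 fold change -0.88 ± 0.14, SE; edgeR adjusted p = 0.0026). The groups did not overlap for any of these 3. Slc22a4 (ergothioneine) and Slc22a5 (carnitine) had log2 fold changes of -0.07 and -0.26, and Slc10a3, the most abundant of the class at 12.7 CPM per kb in MOP and 15.2 CPM per kb in MODP, one of -0.26, and these 3 did not pass; with the column number as a block Slc22a5 and Slc10a3 did (edgeR adjusted p = 0.038 and 0.038). The counts were 4 higher and 2 lower without MODP replicate 2, 4 higher and 3 lower with the column number as a block, and 5 higher without replicate 2 of both groups. Of the 4 members that are not transporters, 0 passed by edgeR (1, Slc7a6os, at an unadjusted p under 0.05), 0 by DESeq2 and 0 with that block, and their log2 fold changes ran from -0.20 (Slc7a6os) to 0.17 (Slc9a3r1).

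In some members the libraries of a group differed widely. Slc15a2, a peptide transporter, stood at 14, 9.14 and 0.758 CPM in MOP replicates 1 to 3, against 16.9, 11.8 and 0.842 CPM in MODP replicates 1 to 3: replicate 3 was low in both groups and replicates 1 and 2 were high. It did not pass (edgeR adjusted p = 0.9). Slc2a3 stood at 125, 159.5 and 112 CPM in MOP, against 50.7, 152 and 39.7 CPM in MODP, with MODP replicate 2 at the level of the MOP libraries. Slc11a1 (Nramp1), a metal transporter of phagosomes, stood at 10.2, 18.6 and 13.4 CPM in MOP, against 4.35, 14.1 and 1.82 CPM in MODP, and Slc15a3, a lysosomal relative of Slc15a4, at 14.1, 21 and 13.3 CPM in MOP, against 5.91, 13.3 and 3.37 CPM in MODP. These 3, Slc16a3 and the fatty acid transport gene Slc27a4 were highest in replicate 2 within each group, as was the neutrophil marker sum, whose part in them was not tested. Without replicate 2 of both groups their edgeR adjusted p was 0.00046 (Slc2a3), 0.0094 (Slc11a1), 0.0029 (Slc15a3), 0.00088 (Slc16a3) and 0.046 (Slc27a4), against 0.44, 0.35, 0.17, 0.13 and 0.73 with all libraries. With the column number as a block Slc15a3 also passed (edgeR adjusted p = 0.012). Slc4a1, the anion exchanger band 3 of red cells, stood at 156, 190.1 and 107 CPM in MOP, against 95.1, 134 and 51.8 CPM in MODP. Its order within each group was that of the erythroid marker sum, whose part in it was not tested, and its edgeR adjusted p was 0.3, or 0.0042 with the column number as a block. These 7 genes, and Slc40a1 plotted with them, were chosen after their values were seen. For that reason the p-values without replicate 2 are no separate support for a difference.

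**Figure D5:**
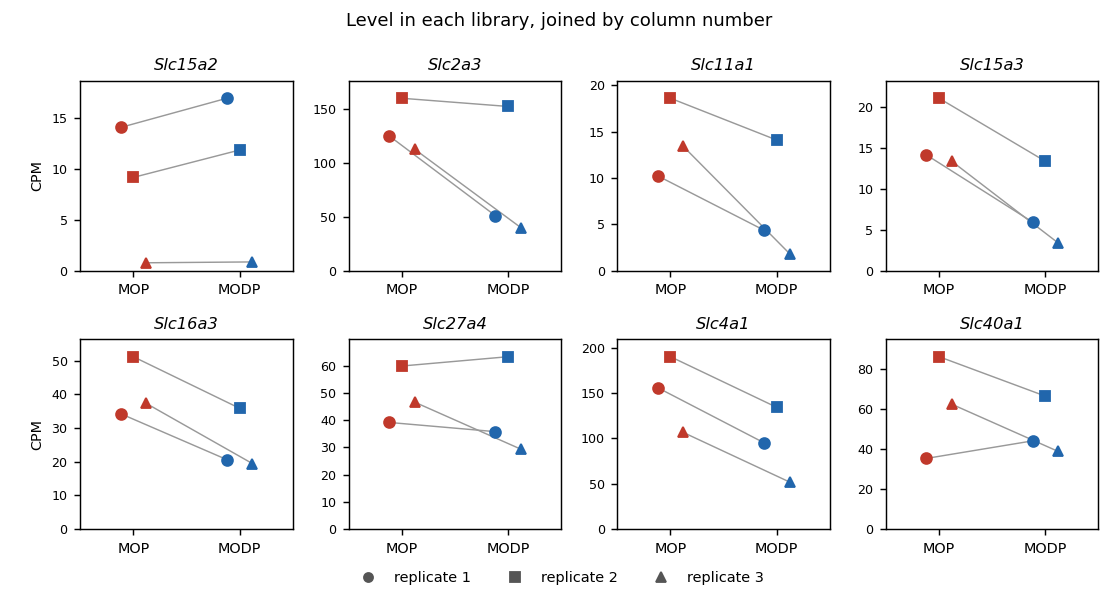
CPM of 8 members in each library, MOP left (red) and MODP right (blue), with a line between libraries of the same column number; each axis starts at 0. Slc15a2 was under 1 CPM in replicate 3 of both groups, and Slc2a3 reached 152 CPM in MODP replicate 2, against 50.7 and 39.7 CPM in replicates 1 and 3.

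Genes of related function without an Slc symbol were counted from 4 lists. Of 33 tested transporters and partner proteins, 12 passed as higher in MOP and 5 as lower, with a median log2 fold change of 0.16. The lowest adjusted p values on this list belonged to Spns3, Slco3a1 and Spns2, which were lower, and Ucp2, which was higher. Spns3 averaged 40.6 ± 3.35 CPM in MOP and 79.6 ± 2.02 CPM in MODP. Slco3a1, an organic anion transporter, averaged 26.9 ± 4.43 CPM in MOP and 90.5 ± 10.04 CPM in MODP. Spns2, an exporter of sphingosine 1-phosphate, averaged 13.9 ± 2.86 CPM in MOP and 44.7 ± 4.32 CPM in MODP. Ucp2, a mitochondrial carrier of the Slc25 kind, averaged 1138 ± 89.2 CPM in MOP and 663 ± 59.6 CPM in MODP (SD, n = 3 each; edgeR adjusted p = 0.00023, 0.00031, 0.00035 and 0.00052). Bsg and Emb, the chaperones of monocarboxylate carriers, had log2 fold changes of 0.09 (did not pass) and 0.30 (edgeR adjusted p = 0.031).

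On the glycolysis and lactate list 2 of 23 tested genes were higher and 5 were lower, on the iron handling list 4 of 22 were higher and 2 lower, and on the amino acid response and synthesis list 5 of 27 were higher and 6 lower. That is 8.70% and 21.7% of the glycolysis list, 18.2% and 9.09% of the iron list and 18.5% and 22.2% of the amino acid list, beside 16.3% higher and 14.9% lower among all genes tested. Pdk1, a kinase that inhibits pyruvate dehydrogenase, and the glycolytic regulators Pfkfb3 and Pfkl fell by 0.59, 0.51 and 0.40 on the log2 scale, as did the isomerase gene Gpi1, by 0.29. The hexokinase gene Hk2 rose by log2 0.42. Alas1, the first enzyme of heme synthesis, averaged 262 ± 7.46 CPM in MOP and 493 ± 21.7 CPM in MODP (SD, n = 3; edgeR adjusted p = 0.0001). Ftl1, a ferritin chain, averaged 216 ± 10.6 CPM in MOP and 142 ± 7.19 CPM in MODP (edgeR adjusted p = 0.00042), and Ncoa4, which delivers ferritin to lysosomes, 157 ± 2.05 CPM in MOP and 211 ± 2.04 CPM in MODP (edgeR adjusted p = 0.00054). Cisd1, an iron-sulfur protein of the outer mitochondrial membrane, rose by log2 0.51 ± 0.10 (SE). On the amino acid list, Vldlr, a lipoprotein receptor induced in the stress response, was low in all libraries and averaged 0.347 ± 0.111 CPM in MOP and 2.8 ± 0.464 CPM in MODP, and Cebpb, a transcription factor, averaged 59.7 ± 4.09 CPM in MOP and 26.3 ± 5.85 CPM in MODP (SD, n = 3; edgeR adjusted p = 0.00071 and 0.0014). Of the serine and folate enzymes, Shmt1, Phgdh and Psph were lower (log2 -0.68, -0.78 and -0.46) and Mthfd2 was higher (0.47). Atf4, the factor that induces amino acid transporters when amino acids are short, averaged 285 ± 11.2 CPM in MOP and 277 ± 10.2 CPM in MODP (SD, n = 3; edgeR adjusted p = 0.58). The amino acid list had 2 higher genes without MODP replicate 1 and 3 without MOP replicate 1, 2 or 3 or MODP replicate 3. The glycolysis list had 4 higher genes and the iron list 7 with the column number as a block.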

How the data were processed

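Total RNA from sorted bone marrow cells was made into TruSeq libraries, per the labels' protocols. The deposited table holds raw read counts per Ensembl gene, 1 column a library. Per the submitters' processing notes, the tools were HTSeq and TopHat 1.4. Genome build, annotation and strand setting were not given in the sources used here. Of 22271 rows, 20840 were matched to a symbol and 1431 were not.

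Counts were tested in edgeR 4.0.16 (R 4.3.3) with TMM scaling, filterByExpr, a robust quasi-likelihood fit and Benjamini-Hochberg adjustment over 12850 genes; a call is an adjusted p under 0.05. CPM used TMM-scaled totals, and CPM per kb used exon lengths from GENCODE M21. Shared 31-mers and exon overlaps came from that annotation. DESeq2 1.42.0, other scalings and filters, each library left out, and other count minimums were alternatives. Libraries of a group differed beyond sampling noise (chi-square per degree of freedom 7.35 to 34.7), so none was a copy. Precision is that of 3 libraries a group with 10701425 to 15892640 counts each.

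Column names number the libraries 1 to 3 in both groups, while the titles number them otherwise. Deviations from the group means, over 9351 genes with a mean log2 CPM above 3, correlated at 0.589, 0.607 and 0.507 between libraries of the same column number and at -0.449 to 0.0503 otherwise, so the column numbers were taken as pairs in a blocked alternative.

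The members, classes, lists and motifs were chosen with earlier results of these data known. Named by rule were, in each class, up to 5 higher and 5 lower calls by smallest adjusted p and the most abundant member per kb; over all members the 10 most abundant and the 12 largest and 12 smallest fold changes among calls without overlap; and the first 4 genes of each list by adjusted p. Other genes in the text were added for their role after their values were seen. Some members are counted but not reported by name here.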

Additional observations from a re-analysis of the deposited data

How the results depend on the processing

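Upper-quartile scaling moved the median log2 fold change of all genes tested by -0.05, and values below are by class of members. Of the values under an alternative for 284 genes, namely the 179 members and the tested genes of the 4 lists, 3629 stayed on their side of the threshold, 210 lost a call, 136 gained one and 0 changed sign with a call in either fit. The replicate block by column number gave 57 higher and 34 lower members; among genes named in the report it changed no call beyond those given beside their values. Where counts changed, the cause was not tested, except that leaving out libraries or raising the count minimum leaves fewer libraries or members. Only the larger changes are listed below, so a class that is not named may also have changed. Under upper-quartile scaling the count of higher genes was 4 (mitochondrial carriers), the count of lower genes was 4 (lipids and amines) and 8 (glycolysis list) and the median log2 fold change was -0.0401 (all members), -0.1839 (lipids and amines), -0.0609 (mitochondrial carriers), -0.0150 (sugars), 0.0387 (vitamins), -0.0910 (glycolysis list), -0.0238 (iron list) and 0.1095 (partner list). By DESeq2 the count of higher genes was 1 (monocarboxylates) and the count of lower genes was 1 (amino acids), 1 (ions) and 3 (metals). With the replicate block by column number the count of higher genes was 4 (lipids and amines), 1 (monocarboxylates), 6 (metals), 4 (glycolysis list) and 7 (iron list) and the count of lower genes was 4 (amino acids), 3 (lipids and amines) and 1 (sugars). With members at 1000 or more counts the count of higher genes was 1 (lipids and amines) and 1 (sugars), the count of lower genes was 1 (amino acids) and 3 (metals) and the median log2 fold change was 0.3247 (ions), 0.1584 (monocarboxylates), -0.0038 (nucleosides) and -0.0709 (vitamins). Without replicate 2 of both groups the count of higher genes was 5 (lipids and amines), 1 (monocarboxylates) and 4 (glycolysis list), the count of lower genes was 1 (ions), 1 (monocarboxylates), 1 (sugars) and 4 (iron list) and the median log2 fold change was -0.0728 (lipids and amines), -0.0762 (glycolysis list) and 0.1159 (partner list). With members at 100 or more counts the count of lower genes was 2 (lipids and amines) and 1 (sugars) and the median log2 fold change was 0.3426 (ions), -0.1005 (lipids and amines) and -0.0245 (vitamins). With the replicate block by title number the count of higher genes was 4 (lipids and amines), 1 (monocarboxylates) and 5 (metals) and the count of lower genes was 2 (lipids and amines). With a filter of 1 CPM in 3 libraries the count of lower genes was 2 (lipids and amines). With no filter on low counts the count of higher genes was 0 (nucleosides) and the count of lower genes was 3 (metals). Leaving out 1 library at a time, the count of higher genes ran from 4 to 9 (amino acids), 2 to 4 (lipids and amines), 3 to 7 (mitochondrial carriers), 0 to 1 (monocarboxylates), 0 to 1 (nucleosides), 2 to 5 (metals) and 2 to 5 (amino acid response list), the count of lower genes ran from 10 to 30 (all members), 0 to 3 (amino acids), 0 to 3 (ions), 1 to 2 (lipids and amines), 3 to 7 (mitochondrial carriers), 0 to 1 (monocarboxylates), 1 to 3 (nucleosides), 0 to 3 (nucleotide sugars), 0 to 1 (sugars), 1 to 2 (vitamins) and 2 to 5 (metals) and the median log2 fold change ran from 0.1197 to 0.2361 (amino acids), -0.0580 to 0.0090 (mitochondrial carriers), -0.0200 to 0.0785 (nucleotide sugars), 0.0086 to 0.0817 (sugars), -0.0511 to 0.0108 (glycolysis list), 0.0160 to 0.0921 (iron list) and 0.1008 to 0.1535 (partner list). With 3 libraries a group, members at a few CPM have the widest errors, and the counts by class are small numbers that 1 gene can move. Of the members 5, among them Slc28a2, Slc25a5, Slc38a6 and Slc39a7, share at least 50% of their 31-mers with other genes, and strand was not given, so reads of antisense neighbours cannot be told apart.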

Other observations

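Below the minimum of 300 summed counts lay 150 Slc rows, of which 44 passed the count filter; of these, 6 were higher and 6 lower in MOP by edgeR, beside 16.3% higher and 14.9% lower among all genes tested. A pair of them, chosen after their values were seen, was close to absent from MODP. Slc6a4, the serotonin transporter, had 111, 56 and 75 counts in MOP replicates 1 to 3, against 1, 3 and 3 in MODP. Slc26a3, a chloride-bicarbonate exchanger, had 83, 71 and 64 counts in MOP replicates 1 to 3, against 2, 3 and 3 in MODP. In both, each MOP library held at least 56 counts and each MODP library at most 3. The summed basophil and mast cell markers differed between the groups in the same direction, and their part in these counts was not tested.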
